A study of Homo sapiens with 15 samples.

Results

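Feedback inhibitors of the ERK pathway (DUSP4, DUSP5, DUSP6, SPRY2, SPRY4, SPRED1 and SPRED2), the PEA3 transcription factors ETV4 and ETV5, and PHLDA1 make up a set of 10 genes whose transcripts are used as readouts of ERK activity. They were taken by name from the 33367 genes of the table, and their reads were summed over transcripts in each of 15 libraries. The cells were Reh, an established human line of B-lymphoblastic leukaemia with an ETV6::RUNX1 fusion and no remaining normal ETV6. All groups share that background and received 500 ng/ml doxycycline. In the ETV6 experiment, transduced cell populations were induced for 48 h to express V5-tagged wild-type ETV6 (ETV6_WT, 3 libraries), V5-tagged ETV6 with the R399C substitution in its DNA-binding domain (ETV6_R399C, 3 libraries) or the fluorescent protein tagBFP (tagBFP, 3 libraries). In the CRISPR interference experiment, populations with a stably integrated inducible dCas9-KRAB repressor carried a guide to the ERG promoter (sgERG, 3 libraries) or a non-targeting guide (sgCtrl, 3 libraries), were sorted on the guide vector's reporter and were induced for 72 h. The transgenes were driven by a doxycycline vector rather than by the genes' own promoters, and the populations are not described as clones.

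ERK signalling runs from receptor tyrosine kinases through RAS, RAF and MEK to the kinases ERK1 and ERK2, and switches on genes that restrain it. Dual-specificity phosphatases such as DUSP6 remove the activating phosphates from ERK, and Sprouty and SPRED proteins act further up, at the level of RAS and RAF. The PEA3 factors ETV4 and ETV5 are ETS-family transcription factors whose genes are held down by the repressor CIC until ERK relieves it, and PHLDA1 is a pleckstrin-homology-like protein whose transcript follows ERK activity in many cells. ETV6 is a repressor and ERG an activator of the same ETS family, and ETS proteins recognise a GGAA core, which reads TTCC on the other strand. In precursor B cells the pathway lies downstream of the pre-B-cell receptor and of cytokine and growth factor receptors.

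Promoter sequences from RefSeq (build GRCh38.p14, from 250 bases before to 50 after a start site that RefSeq lists) were found for 6 of the 10 genes, in 9 windows. These starts need not be where the transcripts counted here begin, and for DUSP6, SPRY4, SPRED1, 2 of the 3 SPRY2 windows and 1 of the 2 SPRED2 windows the start lies inside the gene, downstream of the start of the transcript with most reads. DUSP4, DUSP5, ETV4 and ETV5 have no entry in that table. The 3 windows that hold CGGAAG, an extended ETS core, are shown around that match because DUSP6, PHLDA1 and SPRED2 carry 3 different patterns of change below. Capitals mark the match, and CTTCCG is the same element on the opposite strand.
DUSP6 (chr12:89352546-89352575, reverse strand): cggcaacagcccCTTCCGcagcacgctcat
PHLDA1 (chr12:76031806-76031835, reverse strand): ggggaacgagcgCGGAAGcaagtgggcggc
SPRED2 (chr2:65432550-65432573, reverse strand): aagacgtcatcgCTTCCGccctac
Counted from the RefSeq start, the match begins at position -62 in DUSP6, -47 in PHLDA1 and 39 in SPRED2. Relative to the transcript with most reads, it lies 708 bases downstream of the start of DUSP6-201, 219 upstream of that of PHLDA1-202 and 384 upstream of that of SPRED2-201, so the DUSP6 match is not upstream of its leading transcript. The element is common, and 19.5% of the 35116 promoters of the table hold it on either strand. SPRY2 was lower in all 4 comparisons, and its outermost RefSeq start lies 175 bases upstream of the start of SPRY2-202, its leading transcript. The 250 bases before that RefSeq start hold no CGGAAG and are shown with each GGAA or TTCC in capitals.
SPRY2 (chr13:80341127-80341376, reverse strand): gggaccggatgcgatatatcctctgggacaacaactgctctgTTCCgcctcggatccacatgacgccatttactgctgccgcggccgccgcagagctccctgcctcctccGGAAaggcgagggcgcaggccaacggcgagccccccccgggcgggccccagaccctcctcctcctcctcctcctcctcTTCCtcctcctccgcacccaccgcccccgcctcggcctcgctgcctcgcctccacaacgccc
GGAA itself, added after the data were seen, occurs in 95.5% of all promoters and in all 9 windows, so its presence separates nothing. The repeat GGAAGGAA (3.67% of promoters), the longer ETS site CCGGAAGT (4.14%), which contains CGGAAG, the CIC sites TGAATGAA (1.65%) and TGAATGGA (1.03%) and the cyclic-AMP site TGACGTCA (1.85%) were not found in these windows on either strand. The AP-1 site TGANTCA (7.71%) was found in 1 window, at the internal start of SPRED2. These windows leave out distal enhancers, and a match or its lack says nothing about binding.

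The targeted genes followed the labels. ETV6 averaged 5.86 ± 0.327 CPM in the tagBFP group, 486 ± 18.1 under ETV6_WT and 373 ± 14.7 under ETV6_R399C, and ERG 525 ± 6.35 CPM under sgCtrl and 105.1 ± 4.14 under sgERG (SD, n = 3). ETV6 was thus 1.3-fold higher with ETV6_WT than with ETV6_R399C (log2 0.38, edgeR adjusted p = 2.5e-05). Form and level of the transgene therefore cannot be told apart in any comparison between the forms. Reads assigned to ETV6, of which this line has no normal copy left, also fell with sgERG, from 13.2 ± 1.25 CPM with sgCtrl to 6.56 ± 0.513 (2.01-fold, edgeR adjusted p = 7.0e-05). Which transcripts these reads come from was not tested. CPM are a gene's reads scaled to the library's reads of genes that passed edgeR's filter on low counts, with scaling factors set within each experiment. Library totals were 22040338 to 52481351 reads. Library 3 of sgERG stood apart from the other two: chi-square over its degrees of freedom was 14.68 and 12.92 against them, and 6.94 between them. Without it, all 6 members called with sgERG kept their calls, and 2302 genes were called in place of 1969. Of 8 B-lineage markers 7 reached 1 CPM, and VPREB1 had no reads. Their summed level was 4812 to 4874 CPM with tagBFP, 5842 to 6013 with ETV6_WT and 5585 to 5655 with ETV6_R399C, and 8135 to 8213 with sgCtrl against 7088 to 7177 with sgERG, with no overlap between the groups of either experiment. Erythroid markers summed to at most 0.12 CPM and T-cell markers to at most 1.35. Myeloid markers, mostly CSF1R, summed to 17.2 to 18.8 CPM with ETV6_WT against 10.1 to 10.9 with tagBFP, while S100A8 and S100A9 had no reads. Stromal markers, nearly all COL1A1, summed to 47.3 to 54.0 CPM with sgERG against 38.9 to 42.2 with sgCtrl, and COL3A1 had no reads. The part of these markers in the results was not tested. In bulk RNA, fewer cells that express a gene and less RNA per cell cannot be told apart.

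DUSP6 was the most abundant of the 10 genes per transcript length in all 5 groups. In TPM, which correct for length, it stood at 131 with tagBFP (124 to 136) and 193 with sgCtrl (192 to 193). SPRY2 came next with 19.5 TPM (18.8 to 20.4) and 41.2 (40.6 to 42.1). With tagBFP, SPRED2 (7.69 to 10.2 TPM) and ETV5 (7.18 to 9.37) overlapped next, followed by ETV4 (3.23 to 3.72) and PHLDA1 (1.4 to 1.61). DUSP4 (0.218 to 0.29 TPM) and SPRY4 (0.105 to 0.258) overlapped below them, and SPRED1 stood at 0.0326 to 0.0481. With sgCtrl, ETV5 lay above SPRED2 without overlap (11.0 and 8.73 TPM in mean), and ETV4 lay below PHLDA1 (1.34 to 1.64) and DUSP4 (0.583 to 0.641) at 0.373 to 0.475 TPM. SPRED2 and ETV5 overlapped again with ETV6_WT and with sgERG.

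DUSP5, the nuclear ERK phosphatase, had no reads in any of the 15 libraries. A count of 0 allows a level of up to 0.0135 CPM over the 9 libraries of the ETV6 experiment and 0.0133 CPM over the 6 of the other. SPRED1, a membrane-bound inhibitor that recruits the RAS-inactivating protein neurofibromin, had 4 to 11 reads in each library of the ETV6 experiment and none in the CRISPR interference experiment, where the limit is likewise 0.0133 CPM. Intervals and limits of this kind cover counting error only. Both genes fell below edgeR's filter on low counts, and the other 8 were tested.

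With ETV6_WT over tagBFP, 6 of the 8 tested genes fell: DUSP6, DUSP4, SPRY2, SPRED2, ETV4 and ETV5. Among all 14242 genes tested in that comparison 18.9% were lower and 17.6% higher at an adjusted p under 0.05. None of the 8 rose in edgeR's quasi-likelihood test, where 1 was higher at an unadjusted p under 0.05, and none rose in DESeq2. Their median log2 fold change was -0.79, beside 0.00 over all genes tested. Because the members were chosen with earlier results of these data known, such counts and medians describe the set and do not test it. With ETV6_R399C over tagBFP, 1 rose (18.8% of all genes) and 2 fell (22.1% of all genes), with a median of -0.04 beside 0.00. That comparison and the first share the tagBFP libraries. In the direct comparison of ETV6_WT with ETV6_R399C, 6 were lower (9.29% of all genes) and 1 was higher (12.1% of all genes), with a median of -0.85 beside 0.02. With sgERG over sgCtrl, 3 fell (7.74% of the 13464 genes tested) and 3 rose (6.89%), with a median of 0.05 beside 0.00. The labels do not say whether the 3 libraries of a group came from separate cultures, so each p measures only the spread between these libraries. In the following, errors on CPM are SD with n = 3, errors on log2 fold changes are SE, and every adjusted p is from edgeR with Benjamini-Hochberg adjustment over all genes tested unless another test is named.

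**Figure D1:**
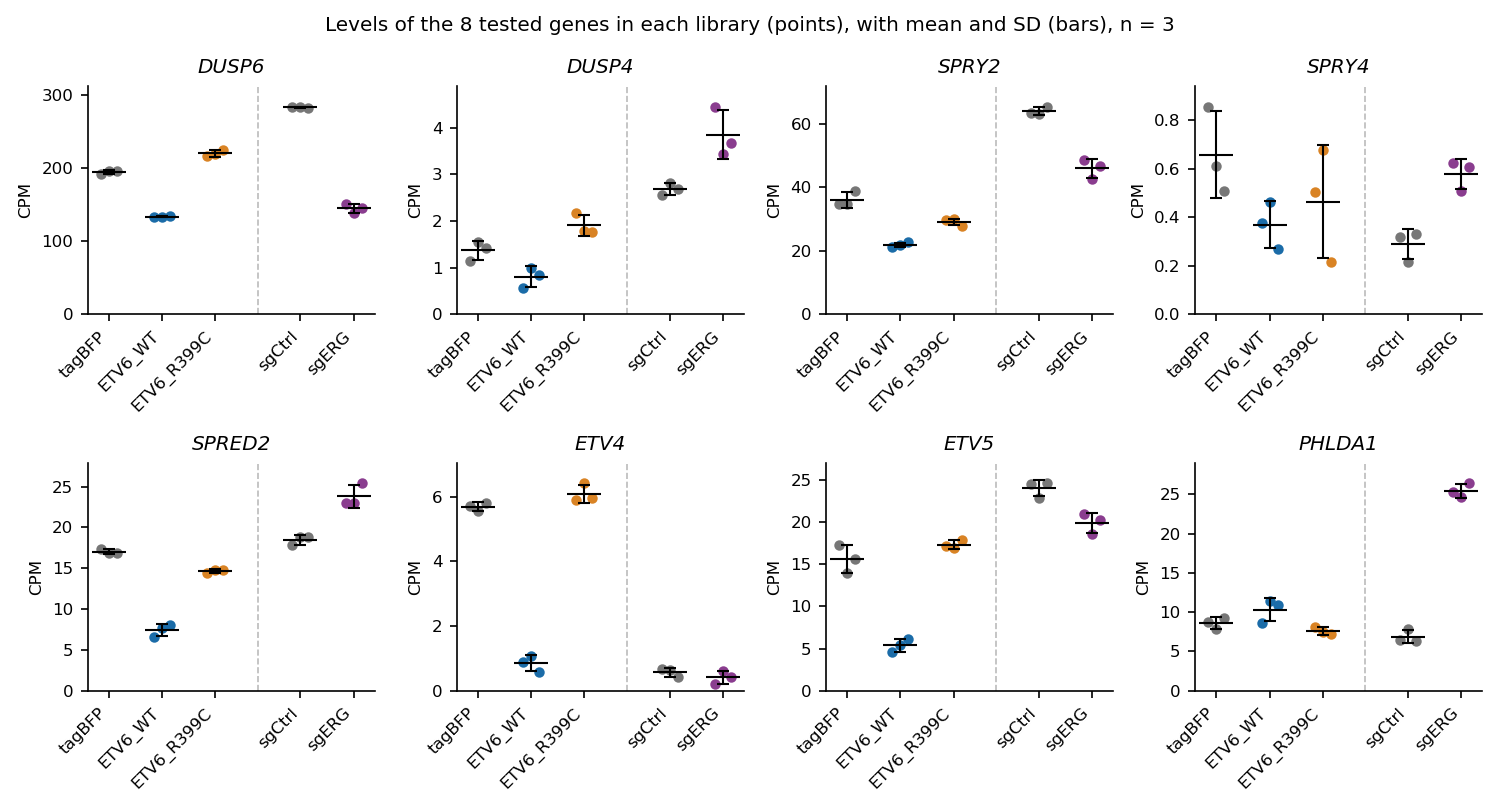
Level of each of the 8 tested genes in CPM (vertical axes from 0, each with its own range) by group. Points are libraries and bars the mean with SD (n = 3). The dashed line separates the ETV6 experiment from the CRISPR interference experiment, which were scaled apart. ETV4, at 5.55 to 5.82 CPM with tagBFP, lies at 0.581 to 1.08 with ETV6_WT, and PHLDA1 lies at 24.6 to 26.4 with sgERG against 6.35 to 7.82 with sgCtrl.

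DUSP6 (chromosome 12, 89347232 to 89353271, reverse strand, hg38) encodes the cytoplasmic phosphatase specific for ERK1 and ERK2. It stood at 192, 196 and 196 CPM in the tagBFP libraries, at 133, 133 and 134 with ETV6_WT and at 216, 219.7 and 225 with ETV6_R399C. The 3 groups did not overlap, with wild-type ETV6 below and R399C above tagBFP. DUSP6 fell 1.47-fold with ETV6_WT (log2 -0.55 ± 0.03, edgeR adjusted p = 2.0e-08) and rose 1.13-fold with ETV6_R399C (log2 0.18 ± 0.02, edgeR adjusted p = 1.6e-04). The 2 forms of ETV6 differed by -0.73 ± 0.03 on the log2 scale (edgeR adjusted p = 1.0e-08). In the CRISPR interference experiment DUSP6 stood at 283, 284 and 282 CPM with sgCtrl and at 151, 139 and 145 with sgERG. It fell with sgERG to 51.1% of the control (log2 -0.97 ± 0.04, edgeR adjusted p = 1.8e-07). Its 5 annotated transcripts were lower in mean in both comparisons. DUSP6-201, which held 54.3% of the gene's reads with tagBFP, stood at 97.5 ± 3.71 RPM (relative to all reads of a library) with tagBFP and 68.2 ± 3.18 with ETV6_WT, and at 141 ± 3.19 with sgCtrl and 70.7 ± 3.99 with sgERG. DUSP6-202 stood at 52.8 ± 2.99 and 32.8 ± 0.909 RPM, and at 88.6 ± 3.26 and 46.7 ± 2.63. Differences of single transcripts were not tested, and Salmon divides the reads of shared exons by its model. An antisense gene, AC024909.2, overlaps DUSP6, and since the strand setting of the counting is not given, their reads cannot be told apart with certainty.

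DUSP4 (chromosome 8, 29333064 to 29350668, reverse strand), a nuclear phosphatase of ERK, JNK and p38, rested on few reads, 34 to 43 per library with tagBFP and 12 to 26 with ETV6_WT. Its level was 1.14, 1.54 and 1.43 CPM with tagBFP, 0.564, 1.0 and 0.849 with ETV6_WT, and 2.16, 1.79 and 1.77 with ETV6_R399C. These groups did not overlap and had the same order as for DUSP6. DUSP4 fell 1.68-fold with ETV6_WT (log2 -0.75 ± 0.25, edgeR adjusted p = 0.0345), and the difference of 0.48 ± 0.23 with ETV6_R399C did not pass the test (edgeR adjusted p = 0.117). Between the 2 forms it was 2.34-fold lower with ETV6_WT (log2 -1.23 ± 0.24, edgeR adjusted p = 0.00442). With sgERG, DUSP4 went the other way from DUSP6. It stood at 2.56, 2.82 and 2.69 CPM with sgCtrl and 4.45, 3.44 and 3.67 with sgERG, a rise of 1.43-fold (log2 0.52 ± 0.15, edgeR adjusted p = 0.0405). The fall with ETV6_WT was lost in edgeR without ETV6_WT library 1 (adjusted p = 0.104) or 3 (0.0724), without tagBFP library 2 (0.0947) or 3 (0.0743), in a fit of only the 2 groups compared (0.056), with an offset for transcript length (0.0846) and in DESeq2 (adjusted p = 0.0991). The rise with sgERG was lost without sgERG library 1 (edgeR adjusted p = 0.141), without sgCtrl library 1 (0.145), 2 (0.0731) or 3 (0.115), with the length offset (0.0958) and in DESeq2 (adjusted p = 0.0566).

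SPRY2 (chromosome 13, 80335976 to 80340951, reverse strand) encodes a Sprouty protein that blocks signalling from growth factor receptors to RAS and RAF. It stood at 34.7, 34.7 and 38.9 CPM with tagBFP, 21.3, 21.7 and 22.7 with ETV6_WT, and 29.6, 29.9 and 28.0 with ETV6_R399C. ETV6_R399C thus lay between tagBFP and ETV6_WT, without overlap. SPRY2 fell 1.64-fold with ETV6_WT (log2 -0.72 ± 0.06, edgeR adjusted p = 1.8e-06) and 1.23-fold with ETV6_R399C (log2 -0.30 ± 0.05, edgeR adjusted p = 9.4e-04). The fall with ETV6_R399C had an adjusted p of 0.0548 in limma on log2 TPM. The direct difference between the forms was -0.41 ± 0.06 (edgeR adjusted p = 4.5e-04). With sgERG it fell from 63.4, 63.2 and 65.5 CPM to 48.7, 42.8 and 46.8 (log2 -0.47 ± 0.05, edgeR adjusted p = 2.2e-04). SPRY2 and DUSP6 were called lower with both ETV6_WT and sgERG under every alternative run, and the other 6 tested members were not. SPRY2-202 held at least 91.7% of its reads in each group.

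SPRED2 (chromosome 2, 65310851 to 65432637, reverse strand), the other SPRED inhibitor of RAS signalling, fell with ETV6_WT and rose with sgERG. It stood at 17.4, 16.8 and 16.9 CPM with tagBFP, 6.58, 7.71 and 8.0 with ETV6_WT, and 14.4, 14.8 and 14.8 with ETV6_R399C. Its level with ETV6_WT was 43.7% of that with tagBFP (log2 -1.19 ± 0.07, edgeR adjusted p = 2.0e-07) and 50.8% of that with ETV6_R399C (log2 -0.98 ± 0.07, edgeR adjusted p = 4.1e-06). With sgCtrl it stood at 17.8, 18.8 and 18.8 CPM and with sgERG at 23.0, 23.0 and 25.4, a rise of 1.29-fold (log2 0.37 ± 0.06, edgeR adjusted p = 0.0036). The rise had an adjusted p of 0.0925 in edgeR with the length offset and 0.113 in limma on log2 TPM, with the same log2 fold change of 0.37. The small fall with ETV6_R399C (log2 -0.22 ± 0.07, edgeR adjusted p = 0.0233) was lost without ETV6_R399C library 1 (edgeR adjusted p = 0.105) or 2 (0.0539), without tagBFP library 1 (0.0763), in DESeq2 (adjusted p = 0.115) and with the length offset (edgeR adjusted p = 0.817), and was 0.00 in limma on log2 TPM (adjusted p = 0.99). SPRED2-201, which held most of the reads, stood at 14.6 ± 0.156 RPM with tagBFP, 6.46 ± 0.877 with ETV6_WT, 13.8 ± 0.717 with sgCtrl and 18.4 ± 0.888 with sgERG. SPRED2-206, which starts inside the gene at 65366650, had no reads in the 9 libraries of the ETV6 experiment and 2.78 ± 0.325 and 2.67 ± 0.816 RPM with sgCtrl and sgERG. A sense-intronic gene, AC012370.1, overlaps SPRED2 on its strand.

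SPRY4 (chromosome 5, 142310427 to 142326455, reverse strand), a Sprouty protein that is among the early transcripts of ERK activation in other cells, had 5 to 27 reads per library in the whole series and passed no test against another group. It stood at 0.855, 0.609 and 0.506 CPM with tagBFP, 0.376, 0.463 and 0.268 with ETV6_WT and 0.502, 0.675 and 0.216 with ETV6_R399C. With sgCtrl it stood at 0.319, 0.217 and 0.329 CPM and with sgERG at 0.623, 0.508 and 0.606, with no overlap. The log2 differences were -0.83 ± 0.41 with ETV6_WT (edgeR adjusted p = 0.143), -0.52 ± 0.40 with ETV6_R399C (0.339), -0.31 ± 0.44 between the forms (0.683) and 0.98 ± 0.33 with sgERG (0.0742). The depth of these libraries does not settle whether SPRY4 changed, and the antisense gene SPRY4-AS1 overlaps it.

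ETV4 (chromosome 17, 43527844 to 43579620, reverse strand), a PEA3 factor, had the largest fold change of the 8 genes in the ETV6 experiment. It stood at 5.73, 5.55 and 5.82 CPM with tagBFP, at 0.893, 1.08 and 0.581 with ETV6_WT and at 5.91, 6.42 and 5.97 with ETV6_R399C. The ETV6_WT libraries, with 13 to 28 reads each, lay far below the others, which had 133 to 181. ETV4 fell 6.61-fold with ETV6_WT over tagBFP (log2 -2.72 ± 0.17, edgeR adjusted p = 3.1e-07) and was 7.06-fold lower with ETV6_WT than with ETV6_R399C (log2 -2.82 ± 0.17, edgeR adjusted p = 1.1e-06). With ETV6_R399C the log2 difference from tagBFP was 0.10 ± 0.14 (edgeR adjusted p = 0.633), with a range of -0.18 to 0.37 at 2 SE either side. In the CRISPR interference experiment ETV4 was low in both groups, with 20 to 29 reads and 0.662, 0.651 and 0.411 CPM with sgCtrl and 7 to 20 reads and 0.208, 0.598 and 0.438 CPM with sgERG. Its difference there was -0.46 ± 0.40 (edgeR adjusted p = 0.498, -1.27 to 0.35 at 2 SE either side), and the change of -2.72 seen with ETV6_WT lies outside that range. These changes start from unlike control levels, so the range does not show whether sgERG acts on ETV4 as ETV6_WT does. The control levels of 5.7 ± 0.139 CPM with tagBFP and 0.575 ± 0.142 with sgCtrl come from populations with other vectors, times and scaling, and that gap was not tested. DHX8 overlaps ETV4 on the other strand. It stood at 107.5 ± 3.17 CPM with ETV6_WT, a log2 difference of 0.09 from tagBFP, and passed the test in none of the 4 comparisons (edgeR adjusted p of 0.136 to 0.811).

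ETV5 (chromosome 3, 186046308 to 186110318, reverse strand), the second PEA3 factor measured, fell with ETV6_WT as ETV4 did. It stood at 17.3, 14.0 and 15.6 CPM with tagBFP, 4.61, 5.4 and 6.12 with ETV6_WT and 17.1, 16.9 and 17.9 with ETV6_R399C. The ETV6_WT libraries lay below all others, and those of tagBFP and ETV6_R399C overlapped. ETV5 fell 2.91-fold with ETV6_WT (log2 -1.54 ± 0.10, edgeR adjusted p = 5.6e-07), and its difference with ETV6_R399C was 0.14 ± 0.09 (edgeR adjusted p = 0.25). The forms differed 3.21-fold (log2 -1.68 ± 0.11, edgeR adjusted p = 1.2e-06), but only by -1.06 with the length offset (edgeR adjusted p = 0.0565) and -1.01 in limma on log2 TPM (adjusted p = 0.0589). With sgERG ETV5 went from 24.5, 22.9 and 24.6 CPM to 20.9, 18.6 and 20.3 (log2 -0.27 ± 0.07, edgeR adjusted p = 0.0228). That fall was -0.04 with the length offset (edgeR adjusted p = 0.925) and in limma on log2 TPM (adjusted p = 0.926), and was lost without sgERG library 2 (edgeR adjusted p = 0.0853) or sgCtrl library 1 (0.0993) or 3 (0.103). In TPM, ETV5 averaged 11.0 in both groups of that experiment. ETV5-201 held at least 92.7% of the gene's reads in each group and stood at 13.6 ± 1.53 RPM with tagBFP and 4.65 ± 0.801 with ETV6_WT. DGKG, which overlaps ETV5 on its strand, stood at 0.822 ± 0.136 CPM with tagBFP and 0.534 ± 0.0316 with ETV6_WT, and ETV5-AS1 overlaps on the other strand. The third PEA3 factor, ETV1, was among the other ERK outputs below and had too few reads to be tested.

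PHLDA1 (chromosome 12, 76025447 to 76033932, reverse strand) had the largest change of the 8 genes with sgERG. It stood at 6.41, 7.82 and 6.35 CPM with sgCtrl and at 25.3, 24.6 and 26.4 with sgERG, far apart and with little spread. It rose 3.72-fold (log2 1.90 ± 0.09, edgeR adjusted p = 3.3e-07), mostly in PHLDA1-202, which went from 5.5 ± 0.669 to 22.3 ± 0.559 RPM. In the ETV6 experiment it stood at 8.74, 7.84 and 9.24 CPM with tagBFP, 8.6, 11.4 and 10.9 with ETV6_WT and 8.15, 7.53 and 7.18 with ETV6_R399C. Neither form differed from tagBFP past the threshold, with log2 differences of 0.26 ± 0.11 (edgeR adjusted p = 0.086) and -0.17 ± 0.11 (0.257). Without ETV6_WT library 1 the first was 0.35 and passed (edgeR adjusted p = 0.0186). PHLDA1 was 1.35-fold higher with ETV6_WT than with ETV6_R399C (log2 0.44 ± 0.11, edgeR adjusted p = 0.0178), a call lost without ETV6_R399C library 2 (edgeR adjusted p = 0.0574) or 3 (0.0544) or ETV6_WT library 2 (0.105) or 3 (0.0687), with the length offset (0.0837) and in limma on log2 TPM, where it was 0.26 (adjusted p = 0.358). Antisense genes AC011611.3 and AC011611.4 overlap PHLDA1.

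**Figure D2:**
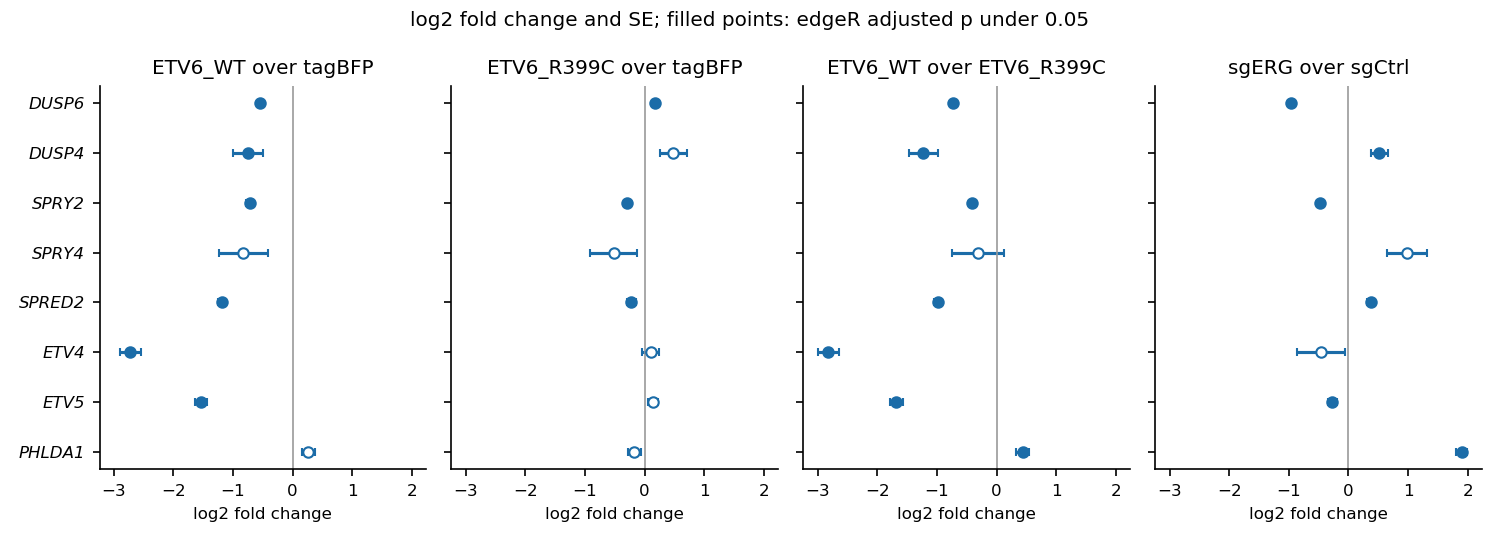
log2 fold change (horizontal axes) of the 8 tested genes in the 4 comparisons, with SE as bars. Filled points passed edgeR's test at an adjusted p under 0.05. In ETV6_WT over tagBFP and over ETV6_R399C the filled points lie left of 0 except for PHLDA1 at 0.44 in the latter, and in sgERG over sgCtrl they lie on both sides, from -0.97 for DUSP6 to 1.90 for PHLDA1.

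Whether the 2 perturbations changed these genes differently was tested in a fit of all 15 libraries, added after the values were seen, as the effect of ETV6_WT over tagBFP minus the effect of sgERG over sgCtrl. The experiments differ in vector, sorting and induction time, so this difference cannot be told apart from one between the experiments. Of all 14969 genes tested, 30.0% differed in either direction, and all 8 members did. DUSP6 was the only one with the more positive change under ETV6_WT, by 0.41 ± 0.04 (edgeR adjusted p = 1.7e-06). The other 7 were lower under ETV6_WT relative to sgERG. ETV4 differed by -2.27 ± 0.42 (edgeR adjusted p = 6.3e-04), SPRY4 by -1.81 ± 0.52 (0.0148), PHLDA1 by -1.63 ± 0.15 (4.8e-07) and SPRED2 by -1.56 ± 0.09 (3.5e-09). For ETV4, already low with sgCtrl, that difference rests on unlike control levels. DUSP4 and ETV5 both differed by -1.27, with errors of 0.28 (edgeR adjusted p = 0.00294) and 0.13 (1.5e-06). SPRY2 differed least, by -0.25 ± 0.08 (edgeR adjusted p = 0.0291), and lost the call without any 1 of ETV6_WT library 1 (edgeR adjusted p = 0.0701) or 2 (0.0638), tagBFP library 3 (0.0782), sgERG library 1 (0.0697) and sgCtrl library 1 (0.0575) or 2 (0.0545), with the length offset (0.123) and in limma on log2 TPM (adjusted p = 0.107). SPRY4, with its few reads, lost it with the length offset (log2 -1.02, edgeR adjusted p = 0.476).

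**Figure D3:**
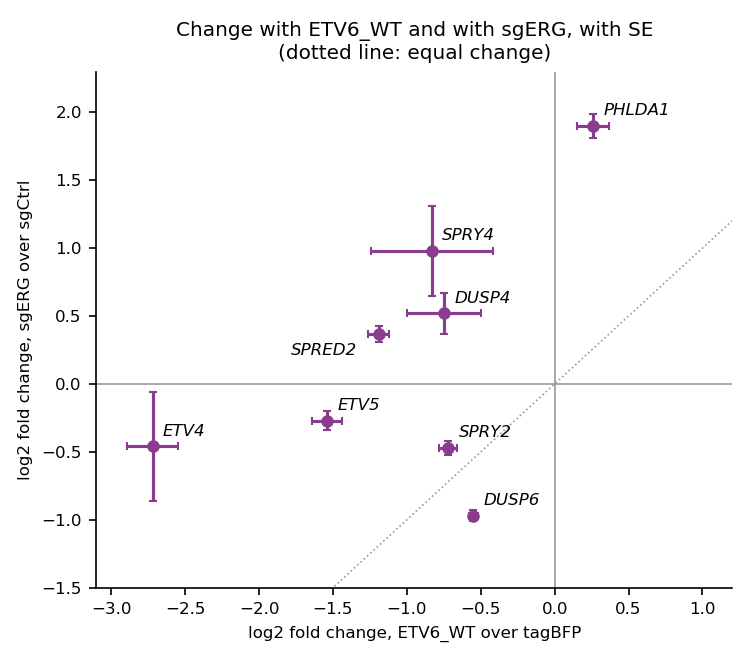
log2 fold change with ETV6_WT over tagBFP (horizontal axis) against that with sgERG over sgCtrl (vertical axis) for the 8 tested genes, with SE as bars. The dotted line marks equal change. DUSP6 is the gene below the line, at -0.55 and -0.97, and PHLDA1 lies at 0.26 and 1.90.

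The other genes of the pathway were read from 7 lists of 83 genes in all. Their counts are to be read beside the shares of all genes tested. These were 17.6% higher and 18.9% lower with ETV6_WT, and 18.8% and 22.1% with ETV6_R399C. Between the forms 12.1% were higher and 9.29% lower with ETV6_WT, and with sgERG 6.89% were higher and 7.74% lower. The lists are small, and no list was tested against these shares. Among 8 other phosphatases of MAP kinases, 5 were tested in the ETV6 experiment and 6 in the other. DUSP1, an inducible nuclear phosphatase, rose from 372 ± 6.71 CPM with tagBFP to 490.0 ± 4.03 with ETV6_WT (log2 0.40 ± 0.02, edgeR adjusted p = 1.6e-07) and 479.5 ± 4.52 with ETV6_R399C (log2 0.37 ± 0.02, edgeR adjusted p = 4.8e-07), opposite in direction to DUSP6 with ETV6_WT. DUSP16 rose with ETV6_R399C from 12.2 ± 0.223 to 14.7 ± 1.94 CPM (edgeR adjusted p = 0.0263), and DUSP7, which acts on ERK, fell with sgERG from 79.8 ± 4.23 to 69.4 ± 2.42 (edgeR adjusted p = 0.023). No other phosphatase of the list passed in these 3 comparisons, and between the 2 forms of ETV6 none passed in edgeR, none had an unadjusted p under 0.05 and none passed in DESeq2. All 8 genes of the list of other feedback inhibitors were tested, and 3 rose and 2 fell with ETV6_WT in edgeR, against 2 and 0 in DESeq2. SPRY1, a further Sprouty gene, fell from 7.94 ± 0.4 CPM with tagBFP to 6.4 ± 0.526 with ETV6_WT (edgeR adjusted p = 0.04) and 6.15 ± 0.762 with ETV6_R399C (0.0168). Both calls were lost in DESeq2 (adjusted p of 0.113 and 0.0536). ERRFI1, which inhibits EGF receptors, fell with ETV6_WT from 9.97 ± 0.751 to 8.34 ± 0.393 CPM (edgeR adjusted p = 0.0208), a call lost in DESeq2 (adjusted p = 0.109). SH2B3, an adaptor that restrains cytokine receptors, rose with ETV6_WT, ETV6_R399C and sgERG by 0.32, 0.44 and 0.16 on the log2 scale (edgeR adjusted p of 2.2e-04, 1.9e-05 and 0.0152). ATXN2 overlaps it on the other strand. In this list 2 rose and 1 fell with ETV6_R399C, 1 was lower with ETV6_WT than with ETV6_R399C, and SH2B3 was the 1 that passed with sgERG.

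Of 9 tested RAS GTPase-activating proteins, which switch RAS off, 3 rose and 2 fell with ETV6_WT, 2 rose with ETV6_R399C, and 3 rose and 1 fell with sgERG. Between the forms 1 was higher and 2 were lower with ETV6_WT. RASAL1 had the largest changes among them. From 9.23 ± 0.354 CPM in the tagBFP libraries it rose to 24.7 ± 1.46 under ETV6_WT and 19.9 ± 0.526 under ETV6_R399C, and it stood at 19.6 ± 0.496 with sgCtrl and 51.5 ± 2.81 with sgERG (log2 1.42, 1.11 and 1.40 over the controls, edgeR adjusted p of 1.3e-08, 1.8e-07 and 1.8e-07). RASAL3 rose with sgERG from 41.5 ± 0.474 to 68.7 ± 5.6 CPM (edgeR adjusted p = 2.2e-05). RASA4, which shares its locus with overlapping same-strand genes and is uncertain, fell by 0.45 on the log2 scale with sgERG (edgeR adjusted p = 2.7e-04).

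Among 13 tested receptors and ligands, 5 rose and 4 fell with ETV6_WT, 5 rose and 3 fell with ETV6_R399C, and 3 rose and 3 fell with sgERG. Between the forms 2 were higher and 3 lower with ETV6_WT. FGFR1, a fibroblast growth factor receptor, fell with sgERG from 186 ± 0.872 to 84.2 ± 4.41 CPM (log2 -1.14 ± 0.05, edgeR adjusted p = 1.1e-07) and with ETV6_WT from 198 ± 2.17 to 176 ± 3.0 (log2 -0.18 ± 0.02, edgeR adjusted p = 1.9e-04). With ETV6_R399C, FGFR1 rose by 0.10 on the log2 scale (edgeR adjusted p = 0.00713). FGFR4 fell with ETV6_WT from 17.7 ± 2.98 to 11.4 ± 0.383 CPM (edgeR adjusted p = 6.7e-04) and with sgERG from 36.0 ± 2.31 to 25.8 ± 1.95 (0.0013). It also fell with ETV6_R399C (log2 -0.37, edgeR adjusted p = 0.0136), and the forms did not differ past the threshold (0.114). FLT3, a receptor of early lymphoid and myeloid cells, fell with sgERG from 162 ± 1.26 to 97.2 ± 8.72 CPM (edgeR adjusted p = 1.8e-05). It rose with ETV6_WT (log2 0.16, edgeR adjusted p = 0.0118) and fell with ETV6_R399C (log2 -0.16, edgeR adjusted p = 0.0122). The insulin receptor gene INSR rose in ETV6_WT, ETV6_R399C and sgERG over their controls by 0.25, 0.22 and 0.34 (edgeR adjusted p of 4.2e-04, 7.8e-04 and 3.5e-04).

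All 23 genes of the core cascade were tested. With ETV6_WT 7 rose and 3 fell, with ETV6_R399C 10 rose and 2 fell, and with sgERG 2 rose and 2 fell. Over all genes tested, 17.6% were higher and 18.9% lower with ETV6_WT, 18.8% and 22.1% with ETV6_R399C, and 6.89% and 7.74% with sgERG. Between the forms 3 were higher and 6 lower with ETV6_WT. The adaptors GAB1 and GAB2, the kinase BRAF and the RAS exchange factor RASGRP2 led the rises with ETV6_WT, at log2 0.89, 0.84, 0.54 and 0.68 over tagBFP (edgeR adjusted p of 6.8e-09, 3.3e-07, 1.1e-07 and 5.9e-09). All 4 also rose with ETV6_R399C, GAB1 by 1.04, GAB2 by 0.66, BRAF by 0.53 and RASGRP2 by 0.37 (edgeR adjusted p of 3.4e-09, 3.2e-06, 1.9e-07 and 1.0e-06). With sgERG, GAB2 and RASGRP2 fell, by 0.29 and 0.24 on the log2 scale (edgeR adjusted p of 4.1e-04 and 0.00905). The kinase gene RPS6KA1 and HRAS rose with sgERG, by 0.43 and 0.26 (edgeR adjusted p of 4.2e-04 and 0.0312). DESeq2 called 3 genes of this list higher and 3 lower with sgERG.

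Of the other transcripts known to follow ERK, 10 were tested in the ETV6 experiment and 11 in the other. With ETV6_WT 2 rose and 1 fell, with ETV6_R399C 1 rose and 2 fell, and with sgERG 3 rose and 1 fell. Between the forms 2 were lower with ETV6_WT. MAFF rose from 2.89 ± 0.425 CPM with tagBFP to 4.61 ± 0.223 with ETV6_WT (log2 0.67, edgeR adjusted p = 0.00184). With ETV6_R399C it rose to 5.82 ± 0.331 CPM (log2 1.00, edgeR adjusted p = 8.9e-05). JUNB rose by 0.15 on the log2 scale with ETV6_WT (edgeR adjusted p = 0.0149). TRIB1, a pseudokinase, fell with ETV6_WT from 24.8 ± 0.584 to 10.0 ± 0.919 CPM (log2 -1.31 ± 0.07, edgeR adjusted p = 6.4e-08), with ETV6_R399C to 14.0 ± 0.599 (log2 -0.82 ± 0.07, edgeR adjusted p = 2.7e-06) and with sgERG from 34.7 ± 0.647 to 27.4 ± 0.597 (log2 -0.34 ± 0.05, edgeR adjusted p = 0.00162). The immediate-early genes EGR1, JUNB and FOS rose with sgERG together with PHLDA1 and opposite to DUSP6. EGR1 went from 74.0 ± 7.9 to 152 ± 35.8 CPM (edgeR adjusted p = 0.00104), JUNB from 71.9 ± 5.94 to 129.9 ± 26.7 (0.00116) and FOS from 4.26 ± 1.04 to 8.31 ± 3.27 (0.0459; adjusted p = 0.1 in DESeq2, where its call was lost), each with a wider spread among the sgERG libraries than PHLDA1 had. In the ETV6 experiment EGR1 was low, and fell from 2.75 ± 0.0932 CPM with tagBFP to 1.49 ± 0.342 with ETV6_R399C (edgeR adjusted p = 0.00341). The gap between its control levels was not tested. FOS was lower with ETV6_WT than with ETV6_R399C, at 1.37 ± 0.54 against 2.94 ± 0.205 CPM (edgeR adjusted p = 0.00823). Neither EGR1 nor FOS passed with ETV6_WT over tagBFP (edgeR adjusted p of 0.126 and 0.132). Of the CIC complex, the repressor of ETV4 and ETV5 named above, CIC itself rose from 162 ± 4.59 CPM with tagBFP to 217 ± 7.21 with ETV6_WT (log2 0.42 ± 0.03, edgeR adjusted p = 1.3e-06) and 188 ± 3.04 with ETV6_R399C (log2 0.22 ± 0.03, edgeR adjusted p = 2.5e-04). Its partner ATXN1L rose by 0.25 and 0.21 (edgeR adjusted p of 1.4e-04 and 4.8e-04). Between the forms, CIC was higher with ETV6_WT (log2 0.21, edgeR adjusted p = 9.0e-04) and ATXN1L did not pass (0.421). ATXN1 was lower (log2 -0.55, edgeR adjusted p = 0.0483), a call lost in DESeq2 (adjusted p = 0.133). ETV4 and ETV5 passed the test with ETV6_WT over tagBFP and not with ETV6_R399C over tagBFP, as given above. Any link between CIC and these 2 genes was not tested. With ETV6_R399C all 3 genes of the complex rose, and with sgERG neither of the 2 tested passed in edgeR, while 1 was lower at an unadjusted p under 0.05 and in DESeq2. FGFR1, BRAF, GAB1, RPS6KA1, JUNB, MAFF and ATXN1L overlap other annotated genes, so their values are uncertain to that extent. Over the 7 lists the median log2 fold change with ETV6_WT ran from 0.02 to 0.42, against -0.79 for the 8 members. Members and lists were chosen with earlier results of these data known, so this contrast is a description and not a test.

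**Figure D4:**
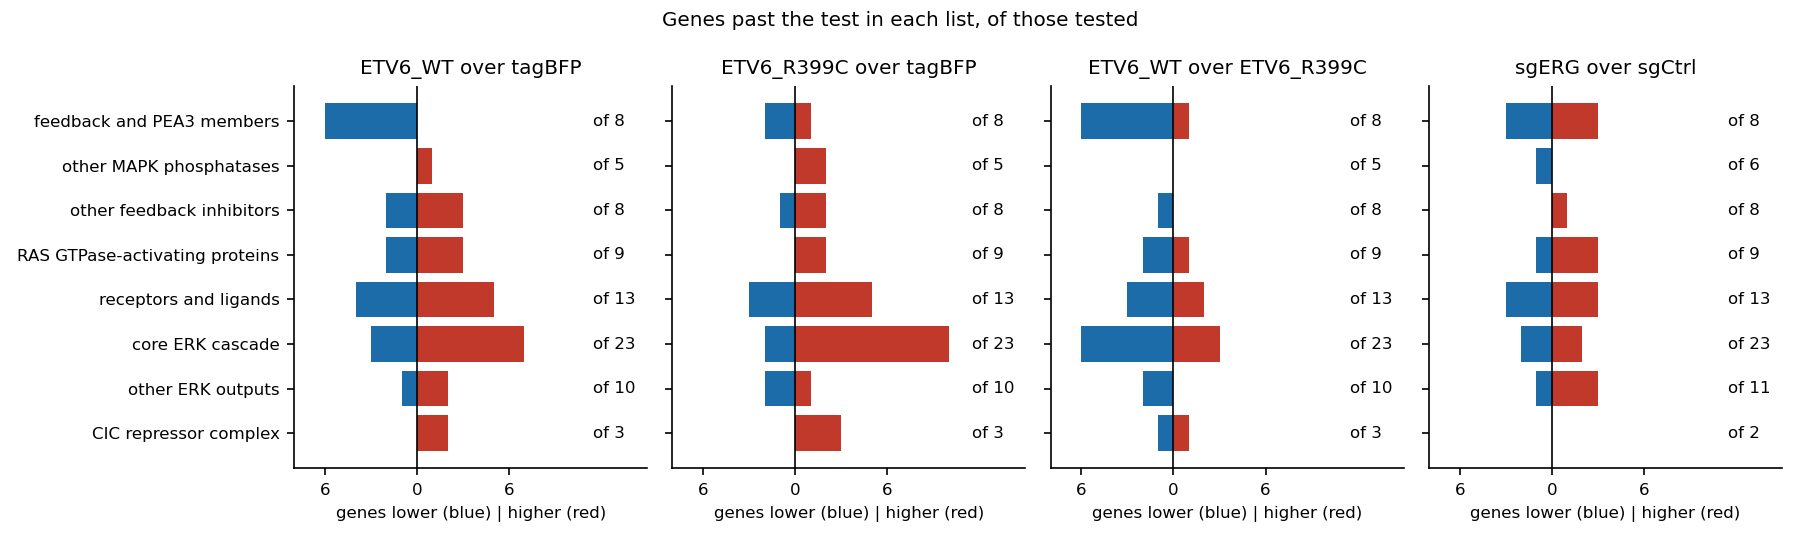
Number of genes lower (blue, to the left) and higher (red, to the right) at an edgeR adjusted p under 0.05 in each list and comparison, with the number tested at the right of each row. Of the 8 tested members 6 were lower with ETV6_WT over tagBFP, and in the core cascade 7 of 23 were higher and 3 lower. Over all genes tested in that comparison, 17.6% were higher and 18.9% lower.

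Genes with the pattern nearest to each member were sought among 9876 protein-coding genes with a mean of at least 5 CPM in each experiment, by the distance between their log2 fold changes with ETV6_WT, ETV6_R399C and sgERG over the controls. The first and second of these share the tagBFP libraries. Nearest to SPRY2 was FGFR4 (distance 0.11, at -0.64, -0.37 and -0.49), followed by LGALS8 and FZD8. Nearest to ETV5 was MAP1B (distance 0.18, at -1.53, 0.01 and -0.39), and to DUSP4 CD93 (0.23), ITGB2 (0.25) and SESN2 (0.26). The log2 fold changes of DUSP4 itself had SE of 0.25, 0.23 and 0.15, so the order of its neighbours is not resolved. Nearest to ETV4 was CLIC5 (distance 0.57, at -2.81, 0.01 and 0.10). The change of ETV4 itself with sgERG was -0.46 ± 0.40, from levels below the 5 CPM set for its neighbours, so its place is uncertain. PHLDA1 was nearest to the metallothionein gene MT1X (0.41, at -0.04, 0.06 and 2.04), LAT (0.53) and MT2A (0.67). DUSP6 was nearest to PREX1 (0.30), TNFSF4 (0.34) and JPH2 (0.35), and all 3 differed from it in sign with ETV6_R399C, at -0.12, -0.03 and -0.14 against 0.18. SPRED2 was nearest to FAM43A (0.34, at -0.88, -0.13 and 0.46).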

How the data were processed

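Messenger RNA was sequenced in 15 Reh libraries. Each deposited table gives estimated counts, TPM and effective length per transcript, per the file headers. The submitters' processing notes name Salmon 0.11.3 and hg38. How strand, bias and read filters were set is not given in the sources used here. As deposited, the estimated counts carry no scaling between libraries, and the authors' TPM are corrected for length and library size. Of 167268 transcripts 90.3% matched GENCODE 29, and the rest (6.67% to 7.56% of reads) were left out. Counts were summed to 33367 genes and rounded.

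edgeR 4.0.16 (R 4.3.3) was run with TMM scaling, filterByExpr, the quasi-likelihood test and Benjamini-Hochberg adjustment over all genes at 0.05, in a fit of 9 and a fit of 6 libraries. The fits were tested on simulated data, where the share of calls that fell on unchanged genes was below the threshold for ETV6_WT over tagBFP and above it for sgERG over sgCtrl. The simulations covered only these comparisons and held fewer changed genes than the fits called. They therefore do not give the share of such calls in the results above. The SE is the log2 fold change divided by the square root of F. No replicate pair agreed within sampling noise (chi-square per degree of freedom 2.89 to 14.68, the highest with sgERG library 3). DESeq2 1.42.0, DESeq2 size factors, no filter, a transcript length offset, limma 3.58.1 on log2(TPM + 0.5), a replicate block, each library left out, and only the 2 groups compared were alternatives. The rule named all 10 members, up to 4 genes per list and comparison with the smallest p (not all are printed), and 3 nearest genes per member. The members and lists were chosen with earlier results of these data known. Promoter motifs were counted on both strands.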

Additional observations from a re-analysis of the deposited data

How the results depend on the processing

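Of 539 comparisons of a member's log2 fold change with an alternative, 487 kept direction and side of the threshold, 44 lost the call, 1 gained it and 7 changed sign, none of the 7 for DUSP6, SPRY2 or PHLDA1. With the transcript length offset, SPRY4 stood at 0.01 with ETV6_WT and 0.21 with ETV6_R399C, ETV4 at -0.03 and ETV5 at -0.38 with ETV6_R399C. In limma on log2 TPM, ETV5 stood at -0.28 and SPRED2 at 0.00 with ETV6_R399C. SPRY4 between the 2 forms ran from -0.64 to 0.03 with 1 library left out, the highest without ETV6_R399C library 2. The cause was not tested.

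With the length offset and in limma on log2 TPM respectively, the genes called numbered 2911 and 2700 with ETV6_WT (5202 in the edgeR fit reported), 3428 and 3319 with ETV6_R399C (5826), 1236 and 1027 between the forms (3044), and 2646 and 2618 for the effect difference (4487). For sgERG limma gave 1088 (1969). In limma 1 member was called with ETV6_R399C, 4 between the forms, 3 with sgERG and 5 for the effect difference, and the length offset gave 3 with sgERG. Limma was run only on genes with at least 1 TPM in at least 3 libraries of the fit. DUSP4 and SPRY4 were therefore not tested in limma, nor was ETV4 with sgERG, so its counts are not out of 8. The length offset and limma on TPM both use the lengths Salmon fitted per library. How far these lengths or limma's own filter account for the drop in genes called was not tested. With 1 library left out, 2008 to 3110 genes were called between the forms (2008 without ETV6_R399C library 1, 2009 without ETV6_WT library 2) and 1160 to 2302 with sgERG (1160 without sgCtrl library 1, 1162 without sgCtrl library 3). Members called were 5 to 6 with ETV6_WT, 2 to 3 with ETV6_R399C, 6 to 7 between the forms, 4 to 6 with sgERG and 7 to 8 for the effect difference.

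Replicate numbers did not pair the libraries: deviations of same-numbered libraries correlated at -0.18 to 0.11, 1 of 12 pairs over 0.1. With the replicate block 5086, 5656, 2973, 1536 and 4144 genes were called in the 5 comparisons (ETV6_WT, ETV6_R399C, between the forms, sgERG and the effect difference). DUSP4 with sgERG was then 0.51 (edgeR adjusted p = 0.0841). Depth limits SPRY4, SPRED1, DUSP4 and ETV4 at low levels most.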
